A study of Mus musculus with 2 samples.

Results

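The genes described here are 10 members of the TGF-beta and activin system of mouse skin wounds. The ligand genes are *Tgfb1*, *Tgfb2*, *Tgfb3* and *Inhba*, and the receptor genes *Tgfbr1*, *Tgfbr2* and *Tgfbr3*. The others are the *Ltbp* genes *Ltbp1* and *Ltbp2*, and *Tgfbi*, whose transcription TGF-beta induces. All 10 were taken by gene symbol, without regard to their values, and make up 10 of the 31053 genes in the deposited matrices. Single-cell RNA was measured in 2 libraries, from back skin wounds on day 5, whose bed and surrounding skin were collected with a 10 mm punch, in C57BL/6 mice of 7 to 9 weeks, with dead cells stained by 7AAD gated out. The labels call both libraries *Mrc1-DTR* and give 1 as treated with PBS and the other with DTX, diphtheria toxin. They are named the PBS and the DTX library here, although by the study's methods the control animals were wild type and received toxin as well. In *Mrc1-DTR* mice the toxin receptor is expressed from the *Mrc1* (CD206) promoter, so that toxin reaches any cell in which that promoter is active. Each library was a pool of 3 male mice, so there is 1 sample per condition, no test between conditions was possible, and every interval below covers counting error only.

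TGF-beta is secreted in a latent form, folded in its own propeptide. It is often bound by a latent TGF-beta binding protein, such as the product of *Ltbp1*, which ties it to the matrix. *Ltbp2* belongs to the same family by name, and its levels are not read as a measure of latency here. Once released, TGF-beta binds the receptor TGFBR2, which brings in and activates TGFBR1, while TGFBR3 (betaglycan) presents ligand, TGF-beta 2 above all. *Inhba* encodes the beta A subunit of activin A, a ligand of the same superfamily with receptors of its own. In healing skin these ligands are known for drawing in leukocytes, for the matrix made by fibroblasts and for their effects on keratinocyte growth.

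After filtering, 7944 cells of the PBS library (81235634 UMIs, median 9579.5 per cell) and 6613 cells of the DTX library (54872675 UMIs, median 7286) remained, and 13 of their barcodes occurred in both libraries. A UMI is the tag of 1 captured RNA molecule. Cells fell into classes named by their markers, of which the macrophage-like (1698 PBS and 4427 DTX cells), fibroblast-like (3065 and 657) and epithelial-like cells (2066 and 235) were the main ones compared. *Mrc1* itself was at 493 CPM (UMIs of a gene per 1000000 UMIs of the class; 95% Poisson interval 478 to 508) in macrophage-like cells of the PBS library and at 429.7 (422 to 437) in those of the DTX library. Within subclusters of these cells, described below, the order was not constant, with 443 CPM (PBS) and 423 (DTX) in subcluster 0 and 686 and 991 in subcluster 3, so that *Mrc1* RNA does not settle which library is which. The PBS library held 12058 barcodes before filtering and the DTX library 11031. The study's text assigns its cell numbers to the groups the other way round from the labels. In its account of cell composition, wounds of *Mrc1-DTR* mice had the larger share of immune cells and the smaller share of *C1qa*-positive macrophages. Macrophage-like cells were 21.4% of PBS and 66.9% of DTX cells here. Subcluster 0 of these cells, with *C1qa* among its leading genes, held 47.5% of them in the PBS and 11.2% in the DTX library. By these shares the labels go with the study's account of composition, and its stated cell numbers do not. PBS and DTX mean the libraries so labelled, and every direction below rests on those labels. RNA of other cells was present in each class. In macrophage-like cells, 10 fibroblast genes summed to 923 CPM in the PBS and 196 in the DTX library, and in fibroblast-like cells the genes of a macrophage list summed to 117 and 428. Levels are compared between classes and libraries but not between genes.

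The 10 genes divided between the classes in distinct ways. *Tgfb1* RNA was highest in NK- or T-like and macrophage-like cells, and *Tgfbi* RNA in macrophage-like cells. *Tgfbr2*, *Tgfbr3*, *Ltbp1* and *Ltbp2* RNA was highest in fibroblast-like cells. *Tgfb2* and *Inhba* RNA was highest in fibroblast- and pericyte-like cells, and *Tgfb3* RNA in pericyte-like cells. *Tgfbr1* differed less between classes than the other receptor genes.

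**Figure D1:**
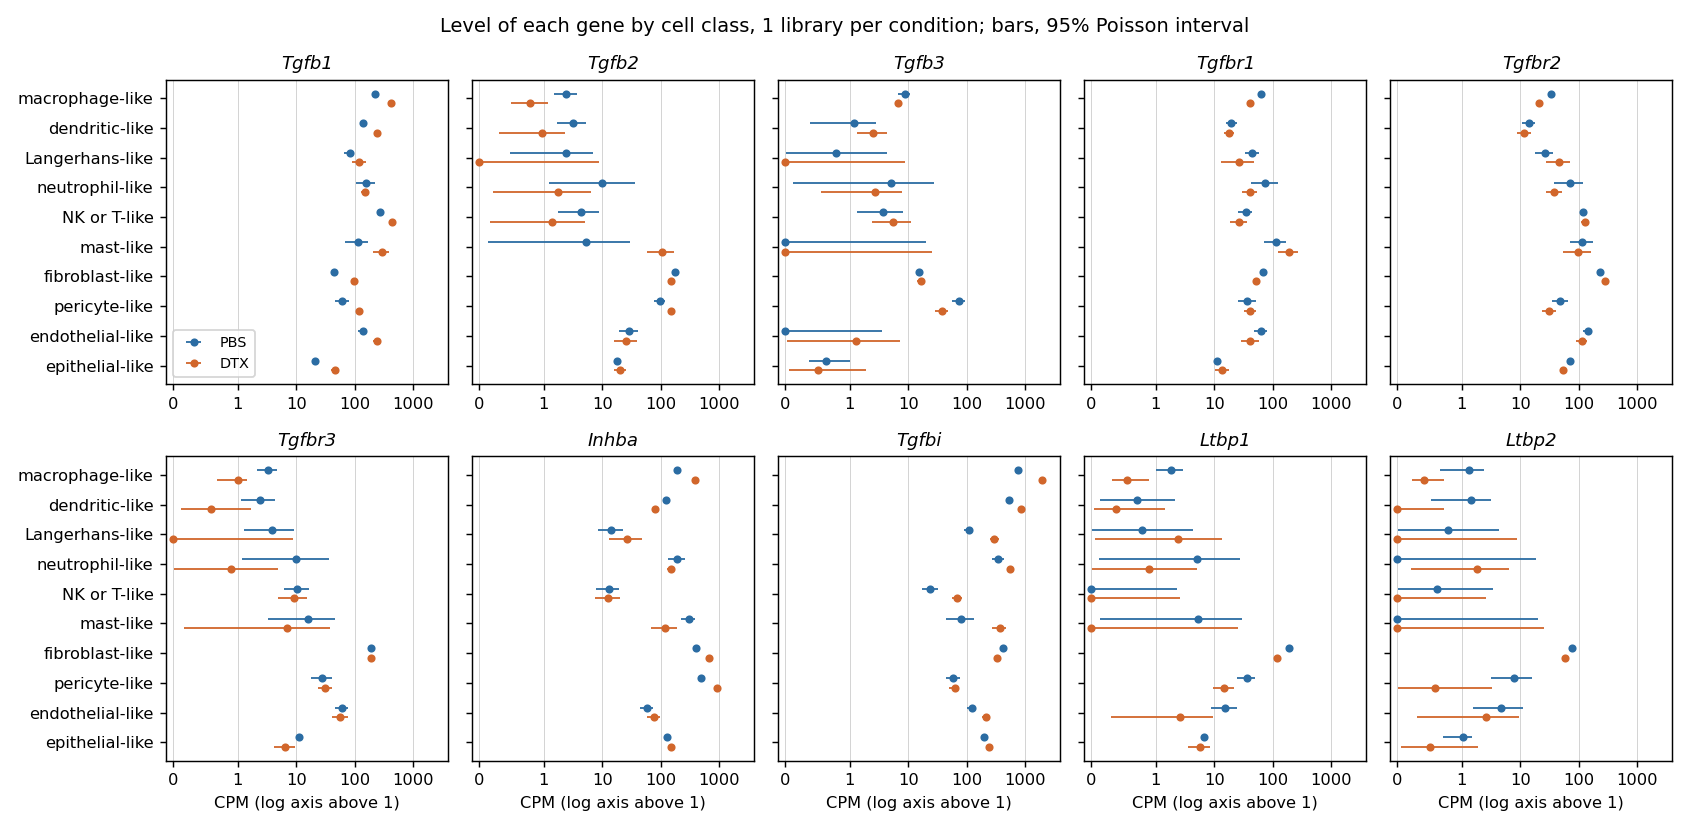
Level of each of the 10 genes, in CPM (horizontal axis, logarithmic above 1), in 10 cell classes of the PBS (blue) and DTX (orange) library; points are the value of 1 library and bars its 95% Poisson interval. Ltbp1 and Ltbp2 are highest in fibroblast-like cells in both libraries, at 188 and 118 for Ltbp1, and Tgfb1 is higher in the DTX library in 9 of 10 classes.

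*Tgfb1* (chr7:25687002-25705077, plus strand, GRCm38) encodes TGF-beta 1, the isoform made by most leukocytes and platelets. In the PBS library it was at 269 CPM (245 to 296) in NK- or T-like cells and at 227 (217 to 238) in macrophage-like cells, against 43.7 (41.5 to 45.9) in fibroblast-like and 21.2 (19.6 to 23.0) in epithelial-like cells. In the DTX library NK- or T-like cells had 432 CPM (398 to 467) and macrophage-like cells 412 (405 to 419), levels whose intervals overlap, and fibroblast- and epithelial-like cells had 96.3 (90.2 to 103) and 45.8 (39.4 to 53.1). Epithelial-like cells were lowest in both libraries. Endothelial-like cells had 136 (115 to 161) in the PBS and 240 (207 to 278) in the DTX library.

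*Tgfb2* (chr1:186622792-186705989, minus strand) encodes the isoform that needs betaglycan for efficient binding. Its level was 178 CPM (174 to 183) in fibroblast-like and 96.2 (76.9 to 119) in pericyte-like cells of the PBS library, and 148 (141 to 156) and 149 (132 to 169) in the DTX library. Endothelial- and epithelial-like cells followed, between 17.9 and 28.6 CPM. RNA carried in with fibroblast genes, by the measure explained below, would account for 51.0% of the endothelial-like level in the PBS and 30.3% in the DTX library. The mast-like cells of the DTX library had 104 CPM, but this came from 15 UMIs in 3 of 19 cells, of which a single cell held 73.3%.

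*Tgfb3* (chr12:86056745-86079041, minus strand), the third isoform, was at 72.7 CPM (56.1 to 92.6) in 61 pericyte-like cells of the PBS and at 37.5 (28.8 to 48.0) in 112 of the DTX library. Fibroblast-like cells had 15.05 (13.8 to 16.4) and 16.4 (13.9 to 19.1), and macrophage-like cells 8.67 (6.78 to 10.9) and 6.77 (5.88 to 7.76). Pericyte-, fibroblast- and macrophage-like cells thus kept this order in both libraries.

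*Inhba* (chr13:16011851-16031621, plus strand) was highest in pericyte-like cells, at 479.7 CPM (435 to 527) in the PBS and 921 (876 to 968) in the DTX library. Fibroblast-like cells came next, with 405 (399 to 412) and 682 (665 to 698). Macrophage-like cells had 193 (183 to 202) and 385 (378 to 392). NK- or T-like cells had 12.9 and 12.6, with intervals that overlapped those of Langerhans-like cells, at 14.2 and 26.3.

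Among the receptor genes, *Tgfbr2* (chr9:116084293-116175360, minus strand), which encodes the receptor that first binds ligand, was at 229 CPM (224 to 235) in fibroblast-like cells of the PBS and at 279 (269 to 290) in those of the DTX library. Endothelial- and NK- or T-like cells followed at 142 and 120.3 CPM in the PBS library with overlapping intervals. Dendritic-like cells had the lowest values, 13.9 and 11.7, but in the PBS library their interval overlapped that of Langerhans-like cells. *Tgfbr1* (chr4:47353222-47414931, plus strand), the gene of the signalling receptor, ranged in the PBS library from 11.0 CPM (9.84 to 12.3) in epithelial-like to 112 (69.6 to 172) in the 34 mast-like cells, and fibroblast-, macrophage- and endothelial-like cells lay together at 68.6, 62.7 and 62.0. *Tgfbr3* (chr5:107106570-107289629, minus strand) was at 193 CPM in fibroblast-like cells of both libraries and at 60.1 and 57.2 in endothelial-like cells. In macrophage-like cells it was at 3.25 and 1.01.

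The *Ltbp* genes were the most restricted. *Ltbp1* (chr17:75005568-75392512, plus strand) was at 188 CPM (183 to 192) in fibroblast-like cells of the PBS and 118 (111 to 125) in those of the DTX library. Pericyte-like cells listed 35.8 and 14.9, of which RNA carried in with fibroblast genes, by the measure explained below, would account for 148% and 230%. As pericyte-like cells may make RNA of those genes themselves, carried RNA and a level of their own cannot be told apart. *Ltbp2* (chr12:84783212-84876532, minus strand; an antisense gene overlaps its start) was at 77.2 (74.3 to 80.1) and 58.4 (53.7 to 63.4) in fibroblast-like cells and below 8 CPM in every other class. NK- or T-like cells had no UMI of *Ltbp1* in either library, for which a count of 3 UMIs would be 1.84 and 2.10 CPM.

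*Tgfbi* (chr13:56609523-56639562, plus strand), which encodes a secreted matrix protein that binds integrins, was highest in macrophage-like cells, at 741 CPM (723 to 760) in the PBS and 1963 (1948 to 1979) in the DTX library. Dendritic-like cells had 533 (511 to 555) and 834 (809 to 859.8), of which macrophage RNA would account for 36.6% and 60.5%, and fibroblast-like cells 422 (415 to 428) and 328 (317 to 340).

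Which class supplied a gene's RNA depended on cell numbers as well as on levels. Of all UMIs, fibroblast-like cells held 43.1% in the PBS and 17.7% in the DTX library, and macrophage-like cells 10.2% and 55.7%. In the PBS library fibroblast-like cells were 38.6% of cells and held the largest share of the UMIs of 9 genes, all but *Tgfb1*. In the DTX library macrophage-like cells were 66.9% of cells and held the largest share of *Tgfb1*, *Tgfb3*, *Tgfbr1*, *Inhba* and *Tgfbi*. Their shares of *Tgfbr1* (58.6%) and *Inhba* (55.5%) lay near their share of all UMIs, and that of *Tgfb3* (45.4%) lay below it. Fibroblast-like cells held 69.1% of *Inhba* UMIs in the PBS and 31.3% in the DTX library, whereas macrophage-like cells held 7.79% and 55.5%. For *Tgfbi* the fibroblast-like share was 50.5% and 4.59% and the macrophage-like share 21.0% and 86.3%. For *Tgfb1* the macrophage-like share was 35.0% and 77.8%. With at most 2000 genes per cell, the limit in the study's methods, which leaves 2480 cells of each library, macrophage-like cells already held 51.5% of *Inhba*, 66.7% of *Tgfbi* and 75.9% of *Tgfb1* UMIs in the PBS library. *Ltbp1*, *Ltbp2*, *Tgfbr3* and *Tgfb2* stayed with fibroblast-like cells, which held 94.2%, 96.6%, 91.6% and 78.4% of their UMIs in the DTX library although they were 9.93% of its cells.

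**Figure D2:**
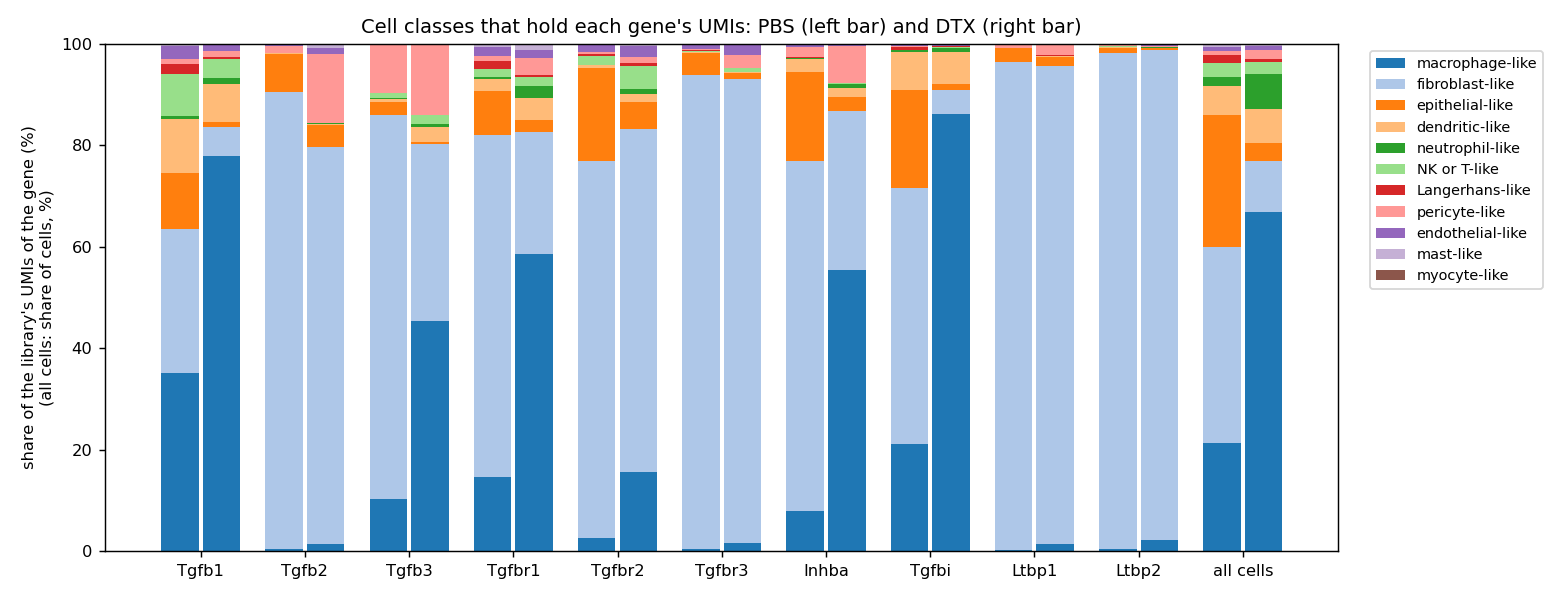
Share of each gene's UMIs (vertical axis, percent) held by each cell class in the PBS (left bar) and DTX library (right bar), with the share of cells at the far right. The macrophage-like share of Inhba is 7.79% in the PBS and 55.5% in the DTX library, beside 10.2% and 55.7% of all UMIs. Fibroblast-like cells hold 96.2% and 94.2% of Ltbp1.

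Over all kept cells of a library, whatever their class, *Tgfb1* was at 66.3 CPM in the PBS and 295 in the DTX library and *Tgfbi* at 360.0 and 1267, while *Tgfb2*, *Tgfbr3*, *Ltbp1* and *Ltbp2* were between 2.36- and 3.68-fold lower in the DTX library on the scale with 1 CPM added. The shares of cells in each class differed in the same direction as these pooled values, and a sample of sorted live cells does not show whether a class was less numerous in the wound or less often recovered.

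The next question was whether the cells of a class carried more or less RNA of these genes in the DTX library. Levels were compared as the log2 ratio of DTX to PBS after adding 1 CPM, and a gene was called when it had 50 UMIs or more over both libraries and differed 2-fold or more. In macrophage-like cells, of the 10 genes, 7 had enough UMIs, 1 was called higher in the DTX library (*Tgfbi*) and 1 lower (*Tgfbr3*), where 1.66% of all 10162 genes tested were called higher and 3.36% lower. The median log2 ratio of the 7 genes was -0.31, against 0.06 over all genes.

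*Tgfbi* had 6155 UMIs in the PBS and 59996 in the DTX macrophage-like cells, a log2 ratio of 1.40 (95% interval 1.37 to 1.44). Thinned to 2000 UMIs per cell, 64.8% (62.3% to 67.2%) of 1476 PBS and 88.4% (87.4% to 89.3%) of 4289 DTX macrophage-like cells had a UMI of *Tgfbi*, against 78.8% and 96.2% before thinning. *Inhba*, with 1600 and 11750 UMIs, had a log2 ratio of 0.99 (0.92 to 1.07), just under the 2-fold limit, and was detected in 17.5% (15.6% to 19.5%) and 27.8% (26.5% to 29.2%) of thinned cells. *Tgfb1*, with 1886 and 12597 UMIs, had a log2 ratio of 0.86 (0.79 to 0.93) and was detected in 34.4% and 53.1% of thinned cells. Of these 3 genes, *Tgfbi* alone passed the 2-fold limit, and the counting intervals of all 3 lay above 0.

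The receptor genes had log2 ratios below 0, of which only that of *Tgfbr3* passed the limit. *Tgfbr1* had a log2 ratio of -0.62 (-0.76 to -0.47) from 521 and 1238 UMIs, and *Tgfbr2* of -0.67 (-0.87 to -0.47) from 277 and 627 UMIs. *Tgfbr3* had a log2 ratio of -1.08 (-1.57 to -0.56), but only 27 and 31 UMIs. RNA carried in with the fibroblast list would account for 57.6% and 52.9% of this *Tgfbr3* level, if every UMI of that list in macrophage-like cells came with *Tgfbr3* in the ratio found in fibroblast-like cells. By the same measure it would account for 101% and 59.0% of the *Ltbp1* and 71.8% and 52.6% of the *Tgfb2* level in macrophage-like cells, but for 0.551% and 0.0465% of *Tgfbi*, 2.04% and 0.493% of *Inhba* and 6.66% and 3.79% of *Tgfbr2*. The measure takes every UMI of a list as carried in, so it is an upper figure for a class that makes such RNA itself.

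**Figure D3:**
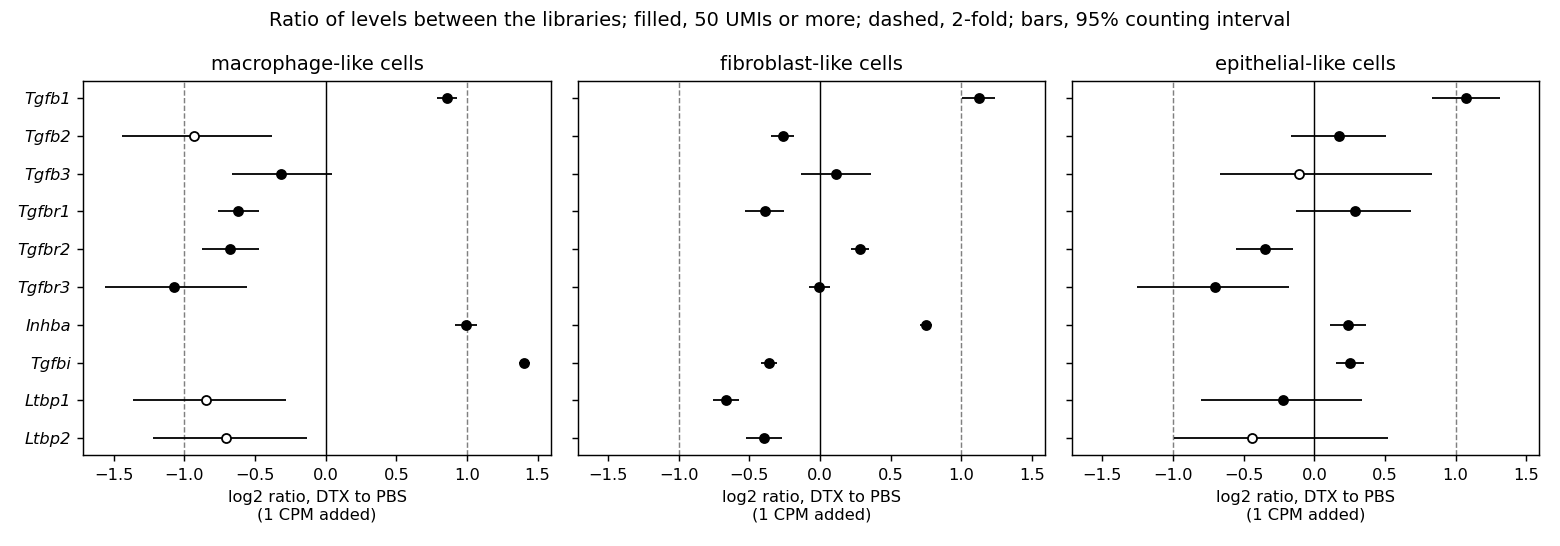
Log2 ratio of DTX to PBS (horizontal axis, 1 CPM added) of each gene in macrophage-, fibroblast- and epithelial-like cells; points are the ratio of 2 libraries, filled where the gene had 50 UMIs or more, bars are 95% counting intervals and dashed lines mark 2-fold. Tgfb1 lies to the right of 0 in all 3 classes, at 0.86, 1.12 and 1.07, while Tgfbi is at 1.40 in the macrophage panel and at -0.36 in the fibroblast panel.

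The macrophage-like cells were divided further into 7 subclusters, clustered without the 10 genes and 70 other genes of the pathway. The libraries filled them unequally. Subcluster 0, led by *Ctsk*, *C1qa* and MHC class II genes, held 47.5% of PBS and 11.2% of DTX macrophage-like cells, and subcluster 3, led by *Ccl8*, *Lpl* and *Igf1* with heat shock genes, held 36.7% and 7.57%. In the DTX library 24.1% of the cells were in subcluster 1 (*Vcan*, *Chil3*, *Plac8*), 22.1% in a *Cd9*-like subcluster with *Arg1* and *Spp1* (number 2, with 9 PBS cells), 17.3% in a *Ccl7*-like one (number 4) and 15.6% in subcluster 5 (*Il1r2*, *Il1b*, MHC class II genes). An *Ifit1*-like subcluster of interferon-induced genes (number 6) was small in both. As each condition had 1 library, a subcluster filled mostly from 1 library cannot be told apart from an effect of that library.

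*Inhba* divided these subclusters most clearly. In the DTX library it was at 734 CPM (712 to 756) in the *Cd9*-like cells, 414 (395 to 432) in the *Ccl7*-like cells and 86.5 (73.4 to 101) in subcluster 3. Within subclusters 0 and 3, which held most PBS cells, *Inhba* was lower in the DTX library, at 234 (PBS) and 171 CPM (DTX) in subcluster 0 and at 130 and 86.5 CPM in subcluster 3, with log2 ratios of -0.45 (-0.59 to -0.31) and -0.58 (-0.86 to -0.30). In subclusters 1, 4, 5 and 6 it was higher in the DTX library, with log2 ratios between 0.88 and 1.28. When both libraries' levels were weighted by the PBS library's mix of the 6 subclusters with 20 cells or more in each, the log2 ratio of *Inhba* over macrophage-like cells went from 0.99 to -0.16. This weighting left out the *Cd9*-like subcluster, which held 4330 of the 11750 *Inhba* UMIs of DTX macrophage-like cells. The *Inhba* ratio thus depended on which subclusters were counted and how they were weighted. Whether it reflects the mix of cells or the library was not tested.

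*Tgfb1* and *Tgfbi* differed from *Inhba* across the subclusters. *Tgfb1* was higher in the DTX library in each of the 6 subclusters compared, with log2 ratios from 0.34 in subcluster 0 (237 and 301 CPM) to 1.13 in the *Ifit1*-like cells (154 and 338 CPM), and the ratio weighted by the PBS mix was 0.47. *Tgfbi* was higher in each as well, with log2 ratios from 0.70 in subcluster 5 (1312 and 2137 CPM) to 1.44 in subcluster 1 (808 and 2193 CPM), and 1.04 when weighted. Its highest level was 2562 CPM (2521 to 2603) in the *Cd9*-like cells of the DTX library.

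*Tgfbr2* had its highest value in subcluster 3, where it was at 55.5 CPM (46.3 to 66.0) in the PBS and 58.0 (47.4 to 70.3) in the DTX library, against 11.4 to 25.1 in the other subclusters of the DTX library. In the PBS library its interval there overlapped those of subclusters 2, 4 and 6, which rest on 1, 6 and 11 UMIs. Weighted by the PBS mix, the log2 ratio of *Tgfbr2* over macrophage-like cells went from -0.67 to -0.05 and that of *Tgfbr1* from -0.62 to -0.19. Both receptor ratios moved with this weighting too.

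**Figure D4:**
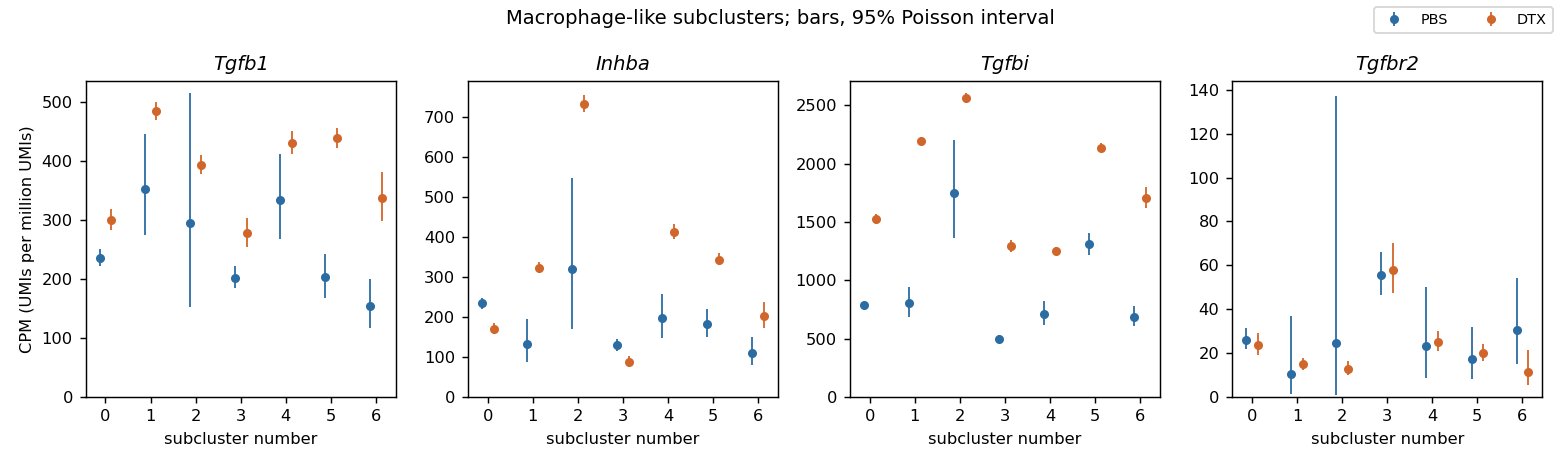
Level (CPM) of 4 genes in the 7 macrophage-like subclusters (horizontal axis, by number) of the PBS (blue) and DTX (orange) library, with 95% Poisson intervals; PBS subcluster 2 rests on 9 cells. Inhba is lower in the DTX library in subclusters 0 and 3 and higher in 1, 4, 5 and 6. Tgfbr2 is highest in subcluster 3 in both libraries, but its PBS interval there overlaps those of subclusters 2, 4 and 6.

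The start regions of the 3 genes with the largest log2 ratios in macrophage-like cells are shown, so that their promoters can be read beside those values, although *Inhba* differed from the other two across subclusters and *Tgfbi* differed from both in fibroblast-like cells. The bases are those before the RefSeq start site on the gene's strand (GRCm38.p6), 250 for *Tgfb1* and *Inhba* and 187 for *Tgfbi*, where the annotation places an exon in the rest. Capitals mark the GC box GGGCGG, the SMAD-binding motif CAGAC and the letters TATAAA, each searched on both strands, and no marked motif overlaps another.
Tgfb1, chr7:25686752-25687001, plus strand: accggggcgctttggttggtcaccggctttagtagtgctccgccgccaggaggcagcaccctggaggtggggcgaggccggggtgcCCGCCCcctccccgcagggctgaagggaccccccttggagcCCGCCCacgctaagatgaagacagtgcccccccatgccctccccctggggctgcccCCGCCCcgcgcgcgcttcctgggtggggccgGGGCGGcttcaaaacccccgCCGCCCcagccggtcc
Inhba, chr13:16011601-16011850, plus strand: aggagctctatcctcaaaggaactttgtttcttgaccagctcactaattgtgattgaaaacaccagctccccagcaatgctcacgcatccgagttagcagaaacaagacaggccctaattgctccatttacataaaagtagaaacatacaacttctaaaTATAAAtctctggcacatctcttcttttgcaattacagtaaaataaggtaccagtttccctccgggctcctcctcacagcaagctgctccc
Tgfbi, chr13:56609336-56609522, plus strand: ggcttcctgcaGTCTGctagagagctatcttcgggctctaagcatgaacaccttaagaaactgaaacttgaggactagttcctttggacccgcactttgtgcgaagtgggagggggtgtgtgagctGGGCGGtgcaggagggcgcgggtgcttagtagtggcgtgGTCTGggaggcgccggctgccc

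The windows had little in common. The *Tgfb1* window was 75.2% G or C and held 5 GC boxes, the *Inhba* window was 43.2% G or C and held no GC box and 1 TATAAA, and the *Tgfbi* window was 59.4% G or C and held 1 GC box and 2 SMAD-binding motifs. A GC box occurs in 32.7%, the SMAD-binding motif in 42.2% and TATAAA in 12.4% of the 32851 RefSeq windows of 250 bases, and a GC box in 22.2% and the SMAD-binding motif in 34.2% of those cut to 187 bases. The AP-1 letters TGANTCA, found in 6.75% of windows of 250 bases, occurred in none of the 10 windows available for 8 of the genes. The cAMP response letters TGACGTCA, found in 1.55% of all windows, occurred in the upstream *Ltbp1* window. These matches describe letters only.

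In fibroblast-like cells, *Tgfb1* was the gene that differed most and the only one called. All 10 genes had enough UMIs, 1 was called higher in the DTX library (*Tgfb1*) and none lower, where 2.67% of all 11814 genes were called higher and 1.4% lower. The median log2 ratio was -0.13 over the 10 genes and 0.12 over all genes tested.

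*Tgfb1* had 1530 UMIs in PBS and 936 in DTX fibroblast-like cells, and its log2 ratio was 1.12 (1.01 to 1.24). Of cells thinned to 2000 UMIs, 8.11% (7.16% to 9.15%) of the PBS and 16.5% (13.7% to 19.5%) of the DTX cells had a UMI of it. RNA carried in with the macrophage list would account for 3.30% of the level in the PBS and 13.2% in the DTX library, and the level of that list was highest in subcluster 4, whose leading genes were *Cd74* and *Lyz2* (45 cells of each library, 2511 and 4170.4 CPM of the macrophage list). Subcluster 4 held 1769 of the list's 4112 UMIs in PBS and 3469 of 4163 in DTX fibroblast-like cells. Without subcluster 4 the log2 ratio of *Tgfb1* was 0.97, under the 2-fold limit, and it was 0.97 with median-of-ratios size factors, which shift all log2 ratios in fibroblast-like cells by -0.16. In subclusters 0 to 3, where the macrophage list lay between 57.5 and 99.5 CPM in both libraries, *Tgfb1* was higher in the DTX library in each, with 33.9 and 66.8 CPM in the *Plac8*-like subcluster 0, 48.7 and 109 in subcluster 1, 37.8 and 103 in subcluster 2 and 83.6 and 136 in subcluster 3.

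*Inhba* had 14194 and 6626 UMIs in fibroblast-like cells and a log2 ratio of 0.75 (0.71 to 0.79). It was detected in 28.9% (27.3% to 30.6%) of thinned PBS and 35.7% (32.0% to 39.5%) of thinned DTX cells. The difference was not shared by all subclusters. In subcluster 1, led by *Igfbp2* and *Grem1*, *Inhba* was at 410.3 CPM (398 to 423) in the PBS and 863 (814 to 914) in the DTX library. In the *Plac8*-like cells it was at 509 and 720.4. In subcluster 2, named *Gpnmb*-like from 3 of 6 listed markers, it was at 279.8 (269 to 291) and 268 (233 to 307). *Gpnmb*, *Ctsk* and *Mmp3* were raised there, but *En1*, *Coch* and *Tnc* were not, and *Ctla2a* and *Gpx3* led it. *Coch* led subcluster 3 instead, so the name does not equate subcluster 2 with the study's *Gpnmb*-high fibroblasts.

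The *Ltbp* genes followed the subclusters. *Ltbp1* was at 372 CPM (360.1 to 384) in subcluster 1 of the PBS library and at 61.7 (57.5 to 66.2) in the *Plac8*-like cells, and at 273 and 48.4 in the DTX library. Subcluster 1 made up 34.2% of PBS and 14.6% of DTX fibroblast-like cells, and the *Plac8*-like cells 27.8% and 45.7%. *Ltbp1* had a log2 ratio of -0.67 (-0.76 to -0.58) over all fibroblast-like cells and of -0.24 when weighted by the PBS mix of subclusters, and *Ltbp2* of -0.40 (-0.53 to -0.27) and -0.11. *Tgfbi*, at 614 CPM in subcluster 1 and 188 in the *Plac8*-like cells of the PBS library, had a log2 ratio of -0.36 (-0.42 to -0.31), and of -0.10 when weighted.

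**Figure D5:**
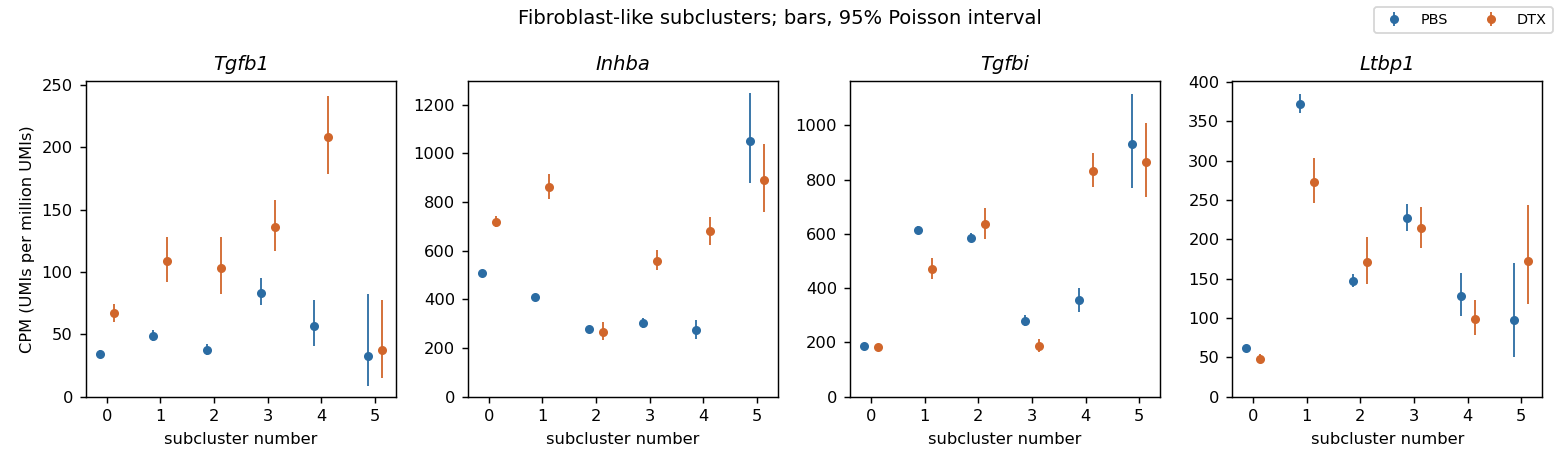
Level (CPM) of 4 genes in the 6 fibroblast-like subclusters (horizontal axis, by number) of the PBS (blue) and DTX (orange) library, with 95% Poisson intervals. Tgfb1 is higher in the DTX library in subclusters 0 to 4, Inhba in 0, 1, 3 and 4, and Ltbp1 is highest in subcluster 1 in both libraries.

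No receptor gene was called in fibroblast-like cells. *Tgfbr2* had a log2 ratio of 0.28 (0.22 to 0.35) and *Tgfbr3* of -0.00 (-0.08 to 0.07), but with at most 2000 genes per cell they had -0.60 and -0.76. *Tgfbr1* had one of -0.39 (-0.53 to -0.25), and the last was -0.14 when weighted by the PBS mix. Both *Tgfbr1* and *Tgfbr2* were detected in 4.12% (3.44% to 4.90%) of the thinned PBS fibroblast-like cells and in 3.54% of the DTX ones, and at 2000 UMIs per cell a cell without a UMI of either cannot be taken to lack it.

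In epithelial-like cells the comparison rests on 235 DTX cells. *Tgfb1*, with 605 and 178 UMIs, had a log2 ratio of 1.07 (0.83 to 1.31) and was the 1 gene called higher of 8 with enough UMIs, with none called lower, where 2.67% of all 10288 genes were called higher and 2.07% lower. RNA carried in with the macrophage list would account for 4.09% of the *Tgfb1* level in the PBS and 29.9% in the DTX library, and without the 26 PBS and 17 DTX cells richest in that list the log2 ratio was 0.75. *Tgfbr2*, with 1989 and 212 UMIs, had a log2 ratio of -0.35 (-0.56 to -0.15), *Inhba* of 0.24 (0.11 to 0.36), and *Tgfbi* of 0.25 (0.15 to 0.35), where the macrophage list would carry 1.43% and 27.6% of the *Tgfbi* level. These cells lay in 2 clusters that the libraries filled unequally, one led by *Ifi202b* and *Clca3a2* (1137 PBS and 79 DTX cells) and one by *Cst6* and *Krt79* (929 and 156). In the first and the second, *Inhba* had log2 ratios of 0.81 (0.60 to 1.01) and -0.30 (-0.47 to -0.14), on opposite sides of 0. Those of *Tgfbr2* were -0.11 (-0.39 to 0.17) and -0.28 (-0.60 to 0.022), with both intervals crossing 0. *Tgfb1* had 0.49 (0.030 to 0.93) and 1.36 (1.05 to 1.66), and was called in the second only. *Tgfb2* had -1.21 (-2.26 to -0.23), a call from 180 and 6 UMIs, and 0.11 (-0.26 to 0.47). *Tgfbr3*, with 317 and 25 UMIs and a log2 ratio of -0.71 over both clusters, had -0.07 (-0.76 to 0.57) and -1.31 (-2.21 to -0.38). The latter was a call from 90 and 6 UMIs. The share of all genes called was not computed for these clusters.

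*Tgfb1* was higher in the DTX library in 9 of the 10 classes compared, with log2 ratios from 0.54 in Langerhans-like to 1.36 in mast-like cells. The mast-like value rests on 21 UMIs in 34 PBS and 42 UMIs in 19 DTX cells. In dendritic-like cells macrophage RNA would account for 43.6% of *Tgfb1* in the PBS and 44.8% in the DTX library. Of the remaining classes, NK- or T-like cells, in which the macrophage list would carry 3.04% and 3.40% of *Tgfb1*, had a log2 ratio of 0.68 (0.50 to 0.86), and endothelial-like cells 0.81 (0.49 to 1.14). Neutrophil-like cells, with 31 and 168 UMIs, had -0.04 (-0.60 to 0.56), and size factors would shift all their ratios by 0.36. In Langerhans-like and neutrophil-like cells of the DTX library, macrophage RNA would account for 95.9% and 145% of *Tgfb1*. The macrophage list was at 3854 and 7324 CPM in them, and how much of it these cells make themselves was not tested. Carried RNA and a level of their own can therefore not be told apart there. The same holds for *Tgfbi* in NK- or T-like cells, where it would account for 112% and 103%.

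Pericyte-like cells had the highest *Inhba* and *Tgfb3* levels. Of 9 genes with enough UMIs there, the 1 called was *Ltbp1*, lower in the DTX library. Its log2 ratio was -1.21 (-1.98 to -0.45) from 32 and 25 UMIs, and by the measure used above carried fibroblast RNA would cover its whole level. The share of all genes called was not computed for this class, so the count has no reference. *Inhba*, with 429 and 1548 UMIs, had a log2 ratio of 0.94 (0.79 to 1.10) and *Tgfb2* one of 0.63 (0.27 to 1.00), while *Tgfb3*, with 65 and 63 UMIs, had -0.94 (-1.45 to -0.42). The fibroblast list, at 26828 and 20473 CPM in pericyte-like cells, would carry 52.3% and 28.9% of their *Tgfb2*, 23.8% and 21.5% of their *Inhba* and 5.83% and 12.7% of their *Tgfb3*. These are upper figures, since how much of the list pericyte-like cells make themselves was not tested. *Inhba* in dendritic-like cells was at 124 and 79.1 CPM, of which macrophage RNA would account for 41.1% and 125%. Here too, a DTX level of their own cannot be told apart from carried RNA.

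Of 70 other genes of the pathway (activators and latency genes, other ligands and receptors, SMAD genes, inhibitors and targets), 66 had enough UMIs in fibroblast-like cells. Of these, 2 were called higher and none lower, where 2.67% of all genes were called higher and 1.4% lower. *Nrros*, which anchors latent TGF-beta on myeloid cells, was at 1.43 and 5.35 CPM, and *Comp*, a matrix gene, at 0.86 and 8.85 CPM. The macrophage list was at 117 and 428 CPM in the same cells, and *Nrros* itself at 179 and 157 CPM in macrophage-like cells. In macrophage-like cells 56 had enough UMIs, 4 were called higher and 12 lower, where 1.66% of all genes were called higher and 3.36% lower. Those higher were the protease gene *Mmp9* (3.01 and 19.1 CPM), *Timp1*, which encodes an inhibitor of such proteases (153 and 422), *Id1*, a target of the BMP branch (9.63 and 24.8), and *Fn1*, the gene of fibronectin. The 3 largest differences among those lower were in *Dcn* (185 and 25.2 CPM), *Gdf15*, a divergent ligand of the superfamily (124 and 19.1), and *Col1a2* (163 and 31.3), and *Dcn* and *Col1a2* belong to the fibroblast list whose sum was 923 and 196 CPM in these cells. In epithelial-like cells 56 had enough UMIs, 3 were called higher and 11 lower, where 2.67% of all genes were called higher and 2.07% lower. *Nrros* was at 0.948 and 7.47 CPM, *Fn1* at 15.3 and 64.6 and *Tagln*, a gene of contractile cells, at 4.85 and 20.6, where the macrophage list was at 70.7 and 460 CPM. The 3 largest differences among those lower were in *Col1a2* (132 and 13.9 CPM), *Dcn* (147 and 18.5) and *Col1a1* (104 and 12.9), with the fibroblast list at 913 and 294 CPM. The median log2 ratio of the pathway genes with enough UMIs was 0.10 in fibroblast-like, -0.05 in macrophage-like and 0.03 in epithelial-like cells.

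Across 17 profiles, each the summed cells of a class of 50 cells or more in a library, the gene most like *Ltbp2* among 12141 searched was *Lrrc15*, a surface protein gene of matrix-producing fibroblasts, with a Pearson correlation of log levels of 0.98. *Ltbp1* was most like *Gk5* (0.97), with the extracellular inhibitor gene *Nbl1* and the microfibril gene *Mfap2* next (0.97 and 0.96). *Tgfb2* was most like *Tnc*, the gene of the matrix protein tenascin C (0.97), then *Nbl1* and the chemokine gene *Cxcl12* (both 0.97). *Tgfb1* was most like *Ly6e* (0.91), *Tgfb3* like *Limk1* (0.94), *Tgfbr3* like *Dnajc25* (0.95), *Inhba* like *Bach1* (0.89), *Tgfbr2* like *Sh3gl1* (0.86) and *Tgfbr1* like *Lhfpl2* (0.83). The profiles share libraries and depth, and the correlations are descriptions only.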

How the data were processed

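For 2 libraries of 10x Genomics single-cell RNA, the authors deposited raw UMI counts (genes by cells), which Cell Ranger had produced from alignment to mm10, without normalization. The submitters' processing notes name Cell Ranger 6.1.1, and the methods another version. A cell was kept if it showed 500 genes or more and mitochondrial UMIs of no more than 6%, as in the methods, whose upper limit of 2000 genes per cell was used only as an alternative, since it would leave 2480 kept cells of each library. Doublets were scored with Scrublet (scanpy 1.11.5), which called 4.59% of PBS cells (382 removed) and none in the DTX library. In the DTX library the top-scoring 8% of cells (575) were taken out instead, so the libraries were cleaned by different rules. Cells were clustered with Seurat 5.3.0 in R 4.3.3 (2000 variable genes without the 10 genes and 70 pathway genes, 30 components, resolution 0.2) and named by markers. UMIs were summed per class and library, with exact Poisson intervals, exact conditional binomial intervals for ratios and Clopper-Pearson intervals for shares, all at 95%. The ratio and its interval were tried on simulated Poisson counts of macrophage-like cells only. Such counts cover counting error, and hold no carried RNA, change of cell mix or variation between libraries. Cells were thinned to 2000 UMIs for shares of cells. No p-value was computed, because each condition had 1 library. Promoter windows came from RefSeq (GRCm38.p6) and gene positions from GENCODE M21, in which all 10 symbols were found. The members, lists and alternatives were chosen with earlier results of these data known. Named pathway genes are the 3 largest calls either way per class, and genes of like pattern the 3 with the highest correlation. UMIs of free RNA and of undetected doublets were not removed from the counts.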

Additional observations from a re-analysis of the deposited data

Results flagged for a closer look

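Only macrophage-, fibroblast- and epithelial-like cells were searched here. Among them, 2 genes had log2 ratios of DTX to PBS of opposite sign in 2 classes, with counting intervals on either side of 0. Whether the classes differ was not tested, since each ratio comes from 1 library per condition. For *Tgfbi*, the log2 ratio was 1.40 (1.37 to 1.44) in macrophage-like and -0.36 (-0.42 to -0.31) in fibroblast-like cells, a difference of 1.76, and 0.25 (0.15 to 0.35) in epithelial-like cells, from which fibroblast-like cells differed by -0.61. Macrophage RNA would account for 18.5% of *Tgfbi* in DTX fibroblast-like and 27.6% in DTX epithelial-like cells, and without the cells richest in it the epithelial-like log2 ratio was -0.09 while the fibroblast-like one was -0.58. Fibroblast-like cells lay in 2 clusters, one led by *Ctsk* and *Serpina3n* and one by *Mfap5* and *Sfrp2*. In the first and the second, *Tgfbi* had log2 ratios of -0.39 (-0.47 to -0.32) and 0.45 (0.36 to 0.54), on opposite sides of 0. The macrophage list was at 139 (PBS) and 442 CPM (DTX) in the first and at 82.5 and 420 in the second. With the PBS mix of subclusters the fibroblast-like *Tgfbi* ratio was -0.10. For *Tgfbr2*, the log2 ratio was -0.67 (-0.87 to -0.47) in macrophage-like and 0.28 (0.22 to 0.35) in fibroblast-like cells, a difference of -0.96, and -0.35 (-0.56 to -0.15) in epithelial-like cells, from which fibroblast-like cells differed by 0.63. Within the 2 epithelial-like clusters, which the libraries filled unequally, the *Tgfbr2* ratios were -0.11 (-0.39 to 0.17) and -0.28 (-0.60 to 0.022), both with intervals that crossed 0. With at most 2000 genes per cell the *Tgfbr2* ratio of fibroblast-like cells was -0.60, and with the PBS mix of subclusters the ratio of macrophage-like cells was -0.05.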

How the results depend on the processing

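Of 300 log2 ratios under the alternatives, 230 lay within the reported counting interval and 70 did not, and 20 had the other sign, 8 of them with at most 2000 genes per cell, but none of a called gene. In macrophage-like cells the count of called genes was 2 and became 1 with 10 CPM added, 6 at 1.5-fold, and 3 without doublet removal, at resolution 0.5 and with size factors, where *Inhba* passed the limit at 1.01, 1.14 and 1.01. In fibroblast-like cells it was 1 and became 2 with at most 2000 genes per cell, 3 at 1.5-fold, and 0 with 10 CPM added, with median-of-ratios size factors, without subcluster 4 and without the cells in which the macrophage list held over 0.1% of UMIs. In epithelial-like cells it was 1 and became 2 at 1.5-fold and 0 with at most 2000 genes per cell, with 10 CPM added, with size factors and without the cells holding macrophage RNA. The direction of *Tgfb1* held throughout, at 0.47 to 0.87 in macrophage-like, 0.85 to 1.19 in fibroblast-like and 0.75 to 2.29 in epithelial-like cells. No minimum of UMIs was set for these ranges, and in epithelial-like cells *Tgfb1* was called at some settings only. The cause of these moves was not tested. The share of all genes called was computed at the main setting only, so counts at other settings, such as 1.5-fold, have no such reference. The alternatives that left out cells by RNA of other cells or by subcluster, and the weighting by subclusters, were chosen after seeing the data. Of 100 shares of UMIs by class under the alternatives, 50 lay within the reported interval. No paired analysis was possible because each condition had 1 library, so no replicate could be left out either. Depth limits *Tgfb3* and *Ltbp2* in epithelial-like cells (20 and 32 UMIs in all) and *Tgfb2*, *Ltbp1* and *Ltbp2* in macrophage-like cells (under 50 UMIs each).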
